A study of Mus musculus with 6 samples.

Results

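In the stromal vascular fraction (SVF) of gonadal white adipose tissue (gWAT), 9 genes of the lymphatic endothelium and of its VEGF-C/VEGF-D growth factor axis were examined out of 22180 genes measured by array. They are the ligand genes Vegfc and Vegfd, the receptor genes Flt4 and Nrp2, the transcription factor gene Prox1, and the lymphatic surface and secreted protein genes Lyve1, Pdpn, Reln and Mmrn1. They were picked by name with earlier results of these data known, so counts over them are a description and not a test. Each had exactly 1 probe set with a single gene symbol in the array annotation. The arrays came from wild-type C57Bl/6 mice, labelled as 8 weeks old, in 2 groups of 3. One group received daily intraperitoneal injections of CL316243 (CL), a β3-adrenergic receptor agonist that drives white fat towards a beige state, at 1 mg per kg in 0.1 ml for 3 days according to the sample labels, and the other received vehicle. The methods of the study describe a longer course of CL in general and a younger age for mice used to fractionate fat, and which of these holds for the arrays is not settled. The SVF is what collagenase releases from fat apart from the floating adipocytes, so it mixes progenitors, fibroblasts, blood and lymphatic endothelium, mural cells, mesothelium and leukocytes. In such a bulk sample, fewer cells of a type and less RNA per cell cannot be told apart. The labels number the arrays as biological replicates, and nothing says whether an array holds RNA of 1 mouse or of a pool.

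Lymphatic vessels drain fluid, lipid and immune cells from tissues. Their growth is driven by VEGF-C and VEGF-D, secreted dimers that are cut by proteases into mature forms and then bind VEGFR3, the product of Flt4, on lymphatic endothelium, with neuropilin-2, the product of Nrp2, as a co-receptor. PROX1 is the transcription factor that sets and keeps lymphatic endothelial identity. LYVE-1, a hyaluronan receptor, podoplanin (Pdpn), reelin (Reln) and multimerin-1 (Mmrn1) are proteins commonly used to mark these cells, and several of them are also made by other cells of fat, LYVE-1 by resident macrophages and podoplanin by mesothelial cells and fibroblasts.

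Values are log2 levels from RMA, so 1 unit is a 2-fold difference. Levels of different genes come from different probes, so the order of genes by level served only to choose which to name, and sums over a list are read only from array to array. A background level of 3.59 was taken from 1394 olfactory and vomeronasal receptor genes, and 39.7% of all genes had a mean below it. Among the 9 genes only Prox1 did. Groups were compared with limma, with p adjusted over all 22180 genes, and the words rose and fell are kept for an adjusted p under 0.05. By this rule 44 genes rose and 28 fell (25 and 32 with quantile normalization), together 0.325% of those tested. None of the 9 did. Over all probe sets the arrays correlated with each other at 0.951 to 0.976, the closest being those of the CL group, and no array stood apart or was a copy of another.

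Both lymphatic ligand genes had higher levels in the CL-treated SVF. For Vegfd the vehicle arrays read 9.02, 9.02 and 9.43 and the CL arrays 9.76, 9.99 and 10.08. Every CL array lay above every vehicle array, and the gap between the groups was somewhat smaller than the range of the vehicle arrays. The means were 9.16 ± 0.24 and 9.94 ± 0.17 (SD, n = 3), a difference of 0.79 (standard error 0.17, 95% interval 0.40 to 1.17), or 1.73-fold, at an adjusted p of 0.0909 in limma. The gene passed when the prior on the spread followed the level of the gene (adjusted p = 0.0487, or 0.0446 with the robust form), and the adjusted p ran from 0.0446 to 0.307 over the alternative settings. For Vegfc the vehicle arrays read 5.58, 5.69 and 6.05 and the CL arrays 6.50, 6.26 and 6.69. Here too the groups did not overlap, with vehicle replicate 3 closest to the CL arrays, as it was for Vegfd. The means were 5.78 ± 0.25 and 6.48 ± 0.21 (SD, n = 3), a difference of 0.71 (standard error 0.18, 95% interval 0.30 to 1.12), or 1.63-fold, at an adjusted p of 0.133. With any 1 array left out the difference stayed between 0.72 and 0.92 for Vegfd and between 0.61 and 0.85 for Vegfc.

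**Figure D1:**
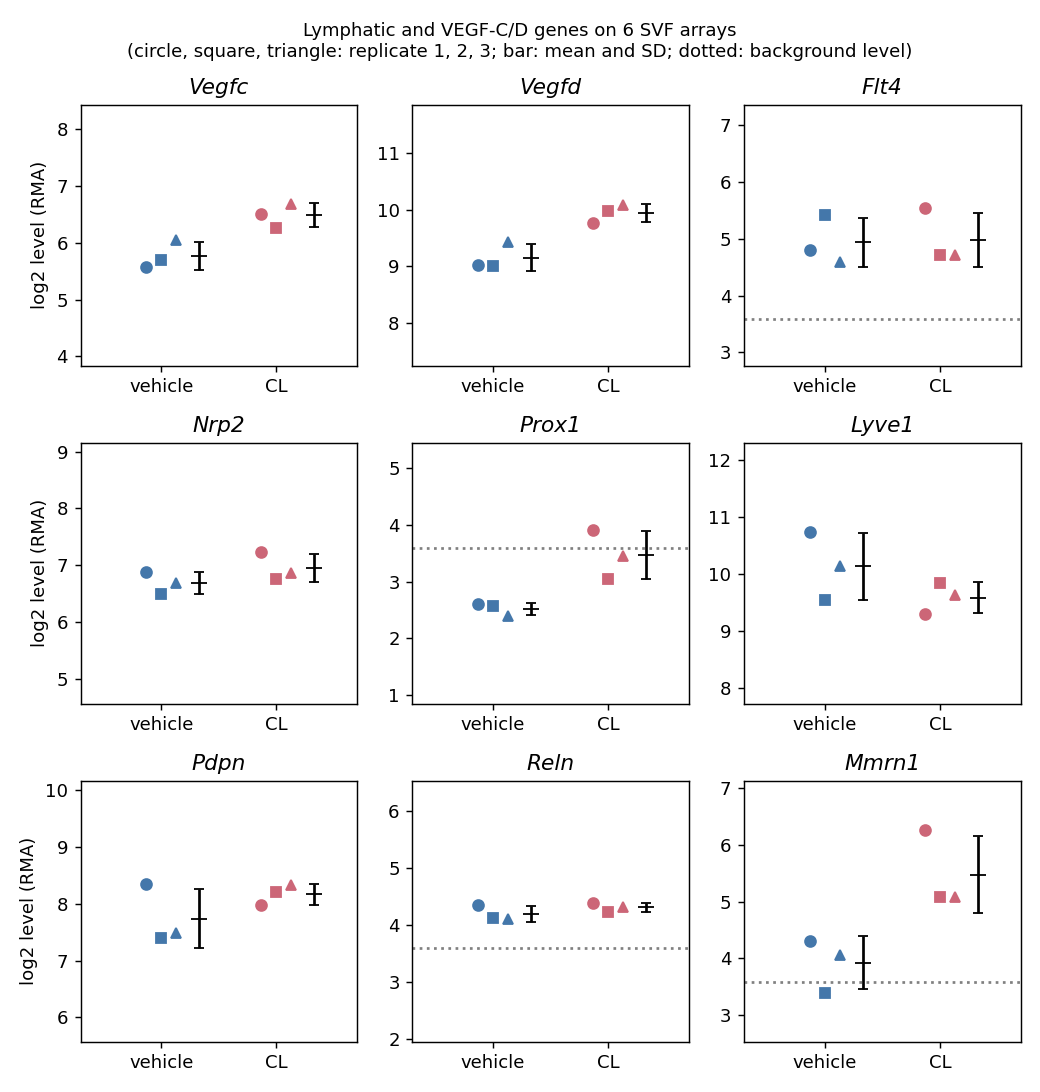
Log2 levels (RMA) of the 9 genes on each vehicle array (blue) and CL array (red), with circle, square and triangle for replicates 1, 2 and 3 and black bars for the mean and SD. Each panel spans the same number of log2 units, the dotted line is the background level of 3.59 where it falls within a panel, and the CL arrays lie wholly above the vehicle arrays for Vegfc, Vegfd, Prox1 and Mmrn1.

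The sequences just before the start sites of the ligand genes are printed because both ligand genes lay without overlap above vehicle while their upstream sequences differ in base composition. Each is the 250 bases before the start of the gene in RefSeq (build GRCm38.p6), 5′ to 3′ on the strand of the gene, for Vegfc at chr8:54077282-54077531 on the plus strand and for Vegfd at chrX:164373272-164373521 on the plus strand. Capitals mark GGAA, the core of sites for ETS transcription factors, or its reverse complement TTCC.
Vegfc: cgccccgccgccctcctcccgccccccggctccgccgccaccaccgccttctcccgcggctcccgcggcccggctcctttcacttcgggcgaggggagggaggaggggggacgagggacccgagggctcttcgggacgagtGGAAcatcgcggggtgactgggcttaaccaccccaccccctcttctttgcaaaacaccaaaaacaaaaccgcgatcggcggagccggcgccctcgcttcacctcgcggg
Vegfd: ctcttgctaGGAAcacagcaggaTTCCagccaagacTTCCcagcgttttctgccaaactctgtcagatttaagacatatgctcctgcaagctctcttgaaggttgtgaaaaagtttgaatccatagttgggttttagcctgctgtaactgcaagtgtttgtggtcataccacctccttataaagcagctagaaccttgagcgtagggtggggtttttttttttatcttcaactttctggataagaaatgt
The Vegfc stretch was 71.6% G or C with 30 CpG pairs, and the Vegfd stretch was 42.4% G or C with 2 CpG pairs, beside medians of 52.4% and 6 over 32851 promoters of the same length. GGAA on either strand occurred 1 time in Vegfc and 3 times in Vegfd, with a median of 3 over all promoters, 93.4% of which held it at least once. TGACG, the half-site of the cyclic AMP response element, was found on neither strand of either gene, and 17.8% of all promoters held it. A match of letters is a description of these windows and not a binding site.

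For neither receptor gene did the CL arrays lie wholly above the vehicle arrays, and receptors and ligands were not tested against each other. For Flt4, which encodes VEGFR3, the vehicle arrays read 4.81, 5.42 and 4.59 and the CL arrays 5.54, 4.71 and 4.71. In each group a single array, vehicle replicate 2 or CL replicate 1, lay well above the others, and the groups overlapped. The difference was 0.05 (standard error 0.28, 95% interval −0.59 to 0.68, adjusted p = 0.961 in limma), so that 3 arrays a group could not tell a lower from a higher level within that interval, and its sign turned under quantile normalization and cyclic loess. Nrp2, the gene of the co-receptor, read 6.88, 6.49 and 6.69 with vehicle and 7.23, 6.75 and 6.87 with CL. Its groups overlapped through vehicle replicate 1 alone. The difference was 0.26 (standard error 0.18, 95% interval −0.14 to 0.67, adjusted p = 0.547), and it was 0.12 without CL replicate 1 and 0.36 without CL replicate 2.

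Mmrn1, the gene of a secreted protein of lymphatic endothelium, had the largest difference of the 9 genes, also with any 1 array left out. Mmrn1 read 4.32, 3.40 and 4.07 with vehicle and 6.27, 5.09 and 5.08 with CL. The groups did not overlap, CL replicate 1 stood above the other CL arrays by over 1 unit, and vehicle replicate 2 lay under the background level. The means were 3.93 ± 0.47 and 5.48 ± 0.69 (SD, n = 3), a difference of 1.55 (standard error 0.35, 95% interval 0.76 to 2.34), or 2.93-fold, at an adjusted p of 0.101 in limma. Without CL replicate 1 the difference was the lowest of the settings, 1.16, and the adjusted p ran from 0.0642 to 0.380 over the alternatives. Prox1, the transcription factor gene, read 2.60, 2.56 and 2.40 with vehicle and 3.90, 3.05 and 3.45 with CL. These groups did not overlap either, but only CL replicate 1 was above the background level, so the size of the difference is not well measured. The means were 2.52 ± 0.11 and 3.47 ± 0.42 (SD, n = 3), a difference of 0.95 (standard error 0.21, 95% interval 0.47 to 1.43, adjusted p = 0.101), and it was lowest, at 0.73, without CL replicate 1.

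The upstream sequences of these genes, the other members whose groups did not overlap, are given for the same 250 bases and build, Prox1 at chr1:190170828-190171077 on the minus strand and Mmrn1 at chr6:60944067-60944316 on the plus strand. Capitals again mark GGAA or TTCC and, in Mmrn1, also AACAAT, a motif of SOX transcription factors.
Prox1: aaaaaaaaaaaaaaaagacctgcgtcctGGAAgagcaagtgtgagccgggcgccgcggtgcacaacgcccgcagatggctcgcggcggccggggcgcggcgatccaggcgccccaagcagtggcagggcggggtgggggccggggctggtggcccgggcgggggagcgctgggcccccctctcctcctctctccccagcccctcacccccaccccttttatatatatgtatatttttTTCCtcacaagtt
Mmrn1: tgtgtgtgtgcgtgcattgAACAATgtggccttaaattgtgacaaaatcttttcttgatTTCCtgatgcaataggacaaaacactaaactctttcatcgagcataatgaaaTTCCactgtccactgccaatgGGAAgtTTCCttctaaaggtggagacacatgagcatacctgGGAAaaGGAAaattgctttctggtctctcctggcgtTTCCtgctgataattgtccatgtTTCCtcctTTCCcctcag
Prox1 was 64.8% G or C with 20 CpG pairs, close to Vegfc, and Mmrn1 was 42.4% with 3, close to Vegfd. The Mmrn1 stretch held GGAA on either strand 9 times, a number that 0.5% of all promoters reach, against 2 times in Prox1. AACAAT occurred 1 time in Mmrn1, on the strand of the gene, and in 9.4% of all promoters, and no marked matches overlapped. Of the 8 members with a promoter in the reference table (Lyve1 had none), none held TGACG on either strand.

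Lyve1 was the 1 gene of the 9 with a lower mean after CL. It read 10.73, 9.55 and 10.13 with vehicle and 9.30, 9.83 and 9.62 with CL. The groups overlapped because vehicle replicate 2 was low, and the vehicle arrays spread more than the CL arrays. The difference was −0.55 (standard error 0.28, 95% interval −1.20 to 0.09, adjusted p = 0.415 in limma), and it was −0.85 without vehicle replicate 2 and −0.26 without vehicle replicate 1. Pdpn read 8.34, 7.40 and 7.48 with vehicle and 7.97, 8.20 and 8.34 with CL. Vehicle replicate 1 matched the highest CL array, while the other vehicle arrays lay below all CL arrays. The difference was 0.43 (standard error 0.25, 95% interval −0.14 to 1.00, adjusted p = 0.484), and 0.73 without vehicle replicate 1. Reln lay close to background, at 4.35, 4.12 and 4.11 with vehicle and 4.38, 4.23 and 4.31 with CL, and its difference was 0.12 (standard error 0.14, adjusted p = 0.766).

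**Figure D2:**
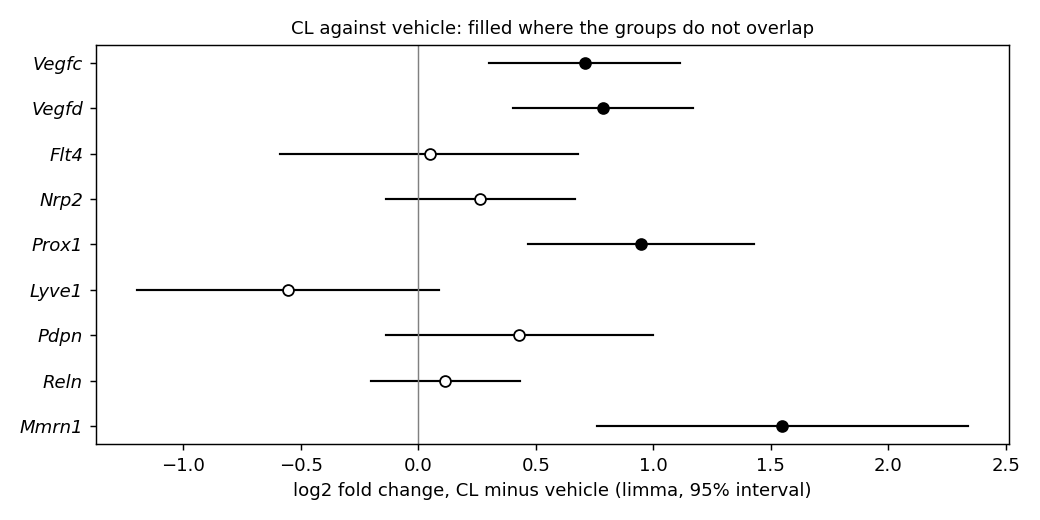
Difference of mean log2 level, CL minus vehicle, for the 9 genes, with 95% intervals from limma for each gene taken singly. Filled points are genes whose groups do not overlap, namely Vegfc (0.71), Vegfd (0.79), Prox1 (0.95) and Mmrn1 (1.55), and the intervals of the other 5 genes include 0.

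Over the 9 genes, the mean was higher with CL in 8 and lower in 1, with a median difference of 0.43 beside 0.00 over all genes tested. In 4 genes all CL arrays lay above all vehicle arrays, beside 11.2% of all genes, and in 0 they lay below, beside 8.72%. The same 4 were higher at an unadjusted limma p under 0.05, beside 9.40% of all genes that were higher and 5.38% that were lower. The methods' t-test gave an unadjusted p under 0.05 for the same number, 4, beside 1561 higher and 1047 lower of the 22180 genes. After adjustment over all genes it gave 0. Without vehicle replicate 1 all CL arrays lay above in 7, with Nrp2, Pdpn and Reln added, beside 18.2% of all genes, since fewer arrays overlap less often. With any other array left out the number above stayed 4, beside 14.3% to 17.3% of all genes. Lyve1 lay wholly below without vehicle replicate 2, as did 14.6% of all genes. Within the CL group, replicate 1 was highest for Flt4, Nrp2, Prox1, Reln and Mmrn1 and lowest for Vegfd, Lyve1 and Pdpn.

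Other genes of the pathway were read from fixed lists. Of 6 other VEGF ligand and receptor genes, 0 rose, 0 fell and 6 did not pass, with a median of −0.25. Vegfa and Vegfb, ligands of blood vessel growth, had differences of 0.09 and 0.07, and Pgf, a ligand of VEGFR1 that lay below background, −0.26. Flt1 and Kdr, which encode the blood vessel receptors VEGFR1 and VEGFR2, had −0.70 and −0.53, and Nrp1, the neuropilin that binds VEGF-A, had −0.25 (standard error 0.14, adjusted p = 0.481 in limma), with all CL arrays (9.05, 8.84 and 9.10) below all vehicle arrays (9.18, 9.34 and 9.21). The ligand genes Vegfc and Vegfd thus differed from Vegfa and Vegfb in size, and Nrp2 and Nrp1 in sign, but these differences between genes were not tested.

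Of 11 measured genes for the maturation and co-factors of VEGF-C and VEGF-D, 1 rose, 0 fell and 10 did not pass, with a median of 0.22. The gene that rose was Svep1, an extracellular matrix protein needed for normal lymphatic vessels in mice and zebrafish. It read 7.46, 7.23 and 7.40 with vehicle and 8.22, 8.48 and 8.27 with CL. Within each group the arrays were tight and the groups were well apart. The difference was 0.96 (standard error 0.15, adjusted p = 0.0383 in limma), but the call was lost whichever array was left out (0.0795 to 0.155). Svep1 had 2 probe sets with a single symbol, and only the one with the higher mean is read here. Over the 17 alternatives run for it the difference went from 0.71 to 1.015 and the adjusted p from 0.0199 to 0.237. Ccbe1 and Adamts3, the co-factor and the protease that cut VEGF-C free, had 0.26 and 0.37, and Adamts14, a related protease, had 0.14. The proprotein convertase genes Furin, Pcsk5 and Pcsk7 had 0.21, 0.33 and −0.01, and the protease genes Ctsd and Plg had 0.22 and 0.10, Plg below background. Itga9 and Itgb1, whose products pair as an integrin of lymphatic valves, had 0.22 and −0.17.

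Of 26 measured regulator and valve genes of lymphatic development, 0 rose, 0 fell and 26 did not pass, and 5 lay wholly above and 1 wholly below the vehicle arrays, beside 11.2% and 8.72% of all genes, with a median of 0.02. The highest in level were Cdh5 (−0.52), Calcrl (−0.40) and Gja1 (−0.36), genes of VE-cadherin, the adrenomedullin receptor and connexin 43 that other endothelial or stromal cells also express. Picked after their values were seen, the 5 were Nr2f2 and Gata2, transcription factor genes that act upstream of or with Prox1, at 0.39 and 0.57, Gja4, a connexin gene, at 0.43, Emilin1, a matrix gene of lymphatic anchoring, at 1.01 (adjusted p = 0.0839 in limma), and Adm, the gene of adrenomedullin, at 0.76 (adjusted p = 0.109). Of 13 other lymphatic endothelial marker genes, 1 rose, 0 fell and 12 did not pass, with a median of 0.09. That gene was Cp (ceruloplasmin, a copper-carrying ferroxidase made by many cells), which read 6.998, 6.77 and 6.65 with vehicle and 7.65, 7.96 and 7.84 with CL, a difference of 1.01 (standard error 0.16, adjusted p = 0.0415), a call that was again lost whichever array was left out (0.0780 to 0.173) and whose adjusted p went from 0.0232 to 0.257 over 17 alternatives. Maf, Thy1 and Cd9, the highest in level, had −0.01, 0.41 and 0.71 and did not pass.

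**Figure D3:**
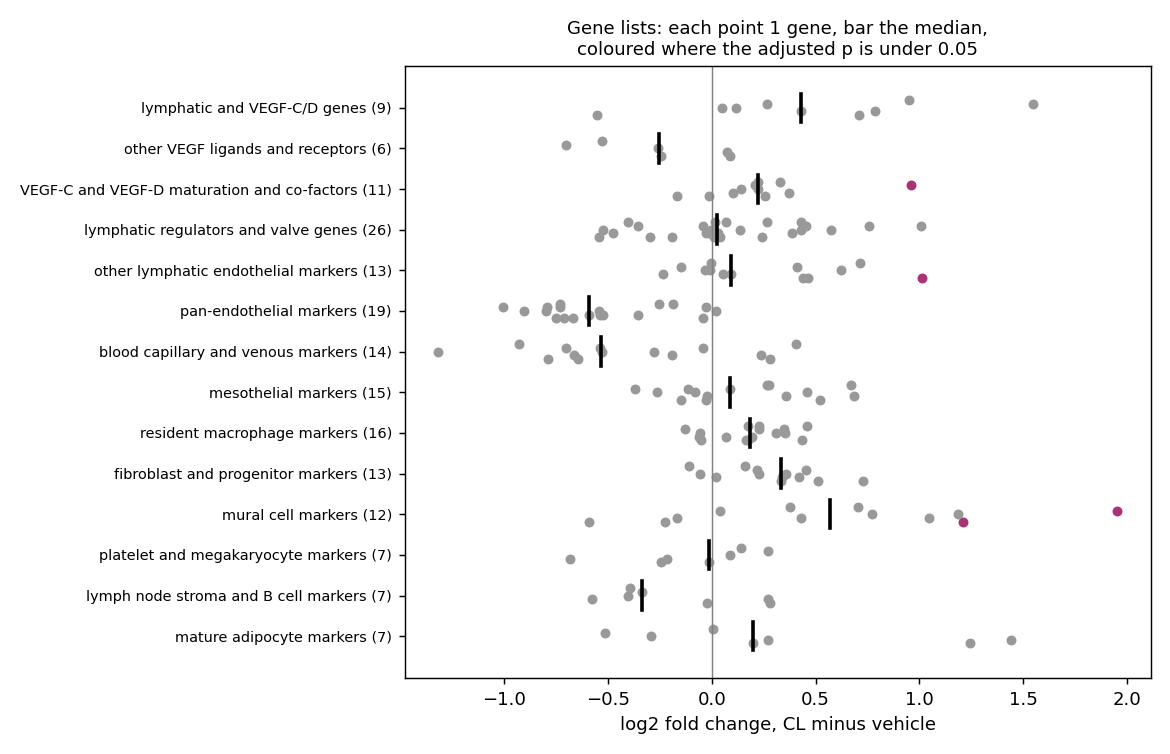
Log2 difference, CL minus vehicle, of each measured gene of the 14 lists, 1 point a gene, with the number of measured genes in brackets and a black bar for the median. The 9 lymphatic and VEGF-C/D genes (median 0.43) lie mostly right of 0, while the pan-endothelial markers (median −0.59) and the capillary and venous markers (median −0.53) lie mostly left of it, and coloured points are the genes with an adjusted p under 0.05.

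Genes listed as general endothelial markers were read beside Mmrn1 and Prox1. Whether each of them is expressed in lymphatic as well as blood endothelium was not tested. Among 19 pan-endothelial markers the mean was lower with CL in 18, 0 passed in limma, and 10 were lower and 0 higher at an unadjusted p under 0.05, with a median of −0.59 that was −0.28 without CL replicate 2 and −0.38 without vehicle replicate 2. Their mean log2 level was 7.96, 8.46 and 7.99 on the vehicle arrays and 8.01, 7.11 and 7.68 on the CL arrays. CL replicate 2 was low and vehicle replicate 2 was high, and CL replicate 1, where Mmrn1 and Prox1 were highest, sat among the vehicle arrays. Pecam1, Ptprb and Cdh5, the highest in level, had −0.75, −0.80 and −0.52. Of 14 capillary and venous markers, 11 had a lower mean and 0 passed, with a median of −0.53 that was −0.29 without CL replicate 2. This list also holds Flt1 and Kdr. Its highest in level were Cd36, Gpihbp1 and Car4, genes of capillary lipid handling and of a carbonic anhydrase, with −0.64, −0.79 and −0.93. The 3 with a higher mean, picked after their values were seen, were Vwf, Ackr1 and Plvap, at 0.41, 0.28 and 0.24. For Vwf all CL arrays lay above all vehicle arrays. Selp and Sele, picked likewise, had −0.19 and −0.28, Sele below background.

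To set the members against the cells that could hold them, the mean of a marker list was subtracted from each gene on the same array, a step chosen after the data were seen. In all, 11 such comparisons were made, and the smallest two-sided p that an exact permutation test of 3 arrays against 3 can give is 0.1 (0.183 after adjustment over the 11). With the pan-endothelial mean subtracted, and the vehicle mean set to 0, Mmrn1 stood at 2.47, 2.18 and 1.60 on the CL arrays against 0.56, −0.85 and 0.29 on the vehicle arrays. Prox1 is not read on this scale because it was below background on all arrays except CL replicate 1. Flt4 stood at 0.72, 0.79 and 0.23 against 0.05, 0.16 and −0.21, a relative difference of 0.58 (standard error 0.21). For Mmrn1, Flt4 and also Nrp2 (relative difference 0.80, standard error 0.30) the groups did not overlap on this scale (exact permutation p = 0.1 each, the smallest possible), while for Reln they did (p = 0.2, exact). Since the subtracted mean was itself lower on most CL arrays, 24.9% of all genes lay wholly above vehicle on this scale and 0.230% wholly below. The relative differences of Mmrn1, Flt4, Nrp2 and Reln all contain that shift. For Mmrn1 the difference was 1.55 in level and 2.08 on this scale, and for Flt4 0.05 and 0.58.

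Vegfc, Vegfd and Pdpn can also be expressed by progenitors and fibroblasts. Of 13 markers measured, 11 had a higher mean, 0 passed and 7 were higher at an unadjusted limma p under 0.05, with a median of 0.33, and their summed linear level was 19660 to 22000 with vehicle and 22490 to 26800 with CL. Dcn, Col1a2 and Dpt, the highest in level, had 0.02, 0.16 and 0.34. With the mean of these markers subtracted, Vegfd stood at 0.50, 0.48 and 0.55 on the CL arrays against −0.18, −0.04 and 0.22 on the vehicle arrays, without overlap and with a relative difference of 0.51 (standard error 0.12, exact permutation p = 0.1), where 2.38% of all genes lay wholly above and 31.9% wholly below. Vegfc stood at 0.62, 0.14 and 0.54 against −0.24, 0.02 and 0.22, so its groups overlapped (relative difference 0.43, standard error 0.20, exact p = 0.2). For Pdpn the relative difference was 0.15 (standard error 0.28, exact p = 0.6).

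Lyve1 was also set against resident macrophages. Of 16 markers of these cells, 12 had a higher mean with CL, 0 passed and 2 were higher at an unadjusted limma p under 0.05, with a median of 0.19 (0.36 without vehicle replicate 1, 0.10 without vehicle replicate 2) and a summed linear level of 9756 to 13340 with vehicle and 11830 to 13410 with CL. Folr2, C1qb and C1qa, the highest in level, had 0.43, 0.23 and 0.35. With the macrophage mean subtracted, Lyve1 stood at −0.92, −0.56 and −0.71 on the CL arrays against 0.30, −0.43 and 0.14 on the vehicle arrays. The groups, which overlapped in level, did not overlap on this scale (relative difference −0.73, standard error 0.25, exact permutation p = 0.1), on which 2667 of the 22180 genes lay wholly below and 889 wholly above. Against the pan-endothelial mean the relative difference of Lyve1 was −0.02 (standard error 0.64, exact p = 0.9).

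**Figure D4:**
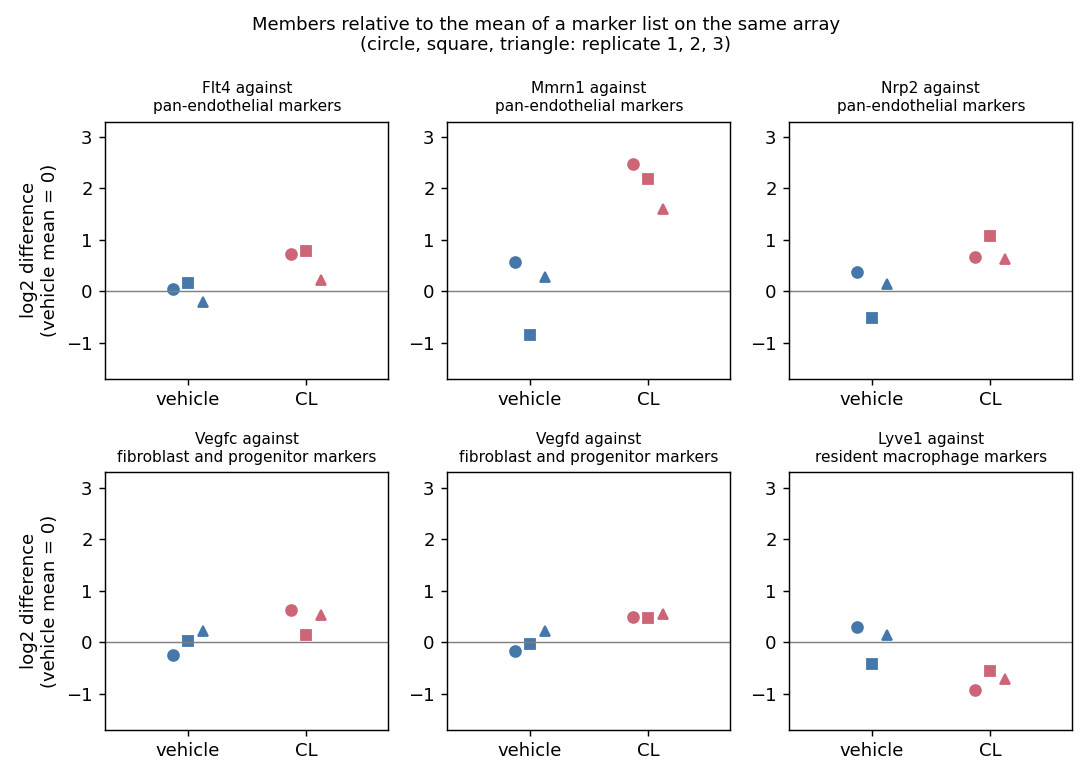
Log2 level of a gene minus the mean log2 level of a marker list on the same array, with the vehicle mean set to 0, for vehicle (blue) and CL (red) arrays, replicates 1, 2 and 3 as circle, square and triangle. All CL arrays lie above all vehicle arrays for Flt4, Nrp2, Mmrn1 and Vegfd, all lie below for Lyve1, and the groups overlap for Vegfc.

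Markers of further cells were read beside these results. Of 15 mesothelial markers, 8 had a higher and 7 a lower mean, 0 passed and 0 lay below background. Upk3b, Slpi and Upk1b, the highest, had −0.02, 0.67 and −0.08. Their summed linear level was 2284 to 3012 with vehicle and 1651 to 4000 with CL, lowest on CL replicate 1 and highest on CL replicate 2. The keratin genes Krt7, Krt8, Krt18 and Krt19, picked after their values were seen, were each highest on CL replicate 2. Krt18 read 9.90 there, 5.01 on CL replicate 1 and 9.01 on vehicle replicate 2. No other gene of the list was highest on CL replicate 2, and Upk3b was highest on CL replicate 3 (9.77). With the mean of all the mesothelial markers subtracted, these keratin genes included, the groups overlapped for Pdpn (relative difference 0.28, standard error 0.37, exact p = 0.6). Platelets, which also contain multimerin-1, were represented by 7 measured markers, of which 0 passed, 2 lay below background and 3 had a higher mean, with a median of −0.01 and a summed level of 1028 to 1520 with vehicle and 815.1 to 1195 with CL. Pf4, Ppbp and Gp9, the highest, had −0.25, −0.22 and 0.27. Most of the summed platelet level was that of Pf4 alone, whose mean level was 9.98 against 4.85 for Ppbp. Of 7 lymph node stroma and B cell markers, 0 passed and 2 had a higher mean, with a median of −0.33 and a summed level of 318.9 to 365.3 and 332.2 to 395.6, and Cxcl13, Cd79b and Madcam1 had 0.28, −0.02 and 0.27.

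Of 12 mural cell markers, 2 rose, 0 fell and 10 did not pass, with a median of 0.57 and a summed level of 2867 to 3008 with vehicle and 3125 to 4574 with CL, highest on CL replicate 1, as Mmrn1 and Prox1 were. Acta2 and Cnn1, genes of contractile smooth muscle such as that around arteries and collecting lymphatics, rose by 1.21 and 1.95 (adjusted p = 0.0291 and 0.0203 in limma). Acta2 lost its call whichever array was left out, and Cnn1 passed only without vehicle replicate 2 or 3 (leave-one-out adjusted p 0.0573 to 0.111 and 0.0419 to 0.111). Rgs5, a pericyte gene, and Myh11, also of smooth muscle, which with Acta2 were the 3 highest in level, had −0.59 and 1.05. Of 7 mature adipocyte markers, 0 passed and 5 had a higher mean, with a summed level of 827.7 to 1335 and 788.6 to 1928, again highest on CL replicate 1, and Retn, Cidec and Pnpla2 had 0.00, −0.51 and 0.20. Picked after their values were seen, Adipoq and Plin1, genes of adiponectin and of a lipid droplet coat protein, had 1.24 and 1.44 (adjusted p = 0.0730 and 0.0816 in limma), with all CL arrays above all vehicle arrays. The part of mural cells, adipocytes, progenitors and mesothelium in the differences of the 9 genes was not tested.

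The genes with the most similar profile were found by the root mean square distance between log2 levels, each minus its own mean, over the 6 arrays, among 13375 genes above background. This measure is a description, since many genes can share the shape of 6 points. Closest to Vegfd were Adm (distance 0.04), Man2a2 (0.08) and Gprc5b (0.08), where the median gene lay at 0.46. Adm read 6.24, 6.20 and 6.70 with vehicle and 6.96, 7.23 and 7.22 with CL, so it too was highest among vehicle arrays on replicate 3. Closest to Vegfc were Cntn1 (0.04), Tcaf1 (0.08) and Mdk, the gene of the growth factor midkine (0.10), beside a median of 0.44. Closest to Mmrn1 were Cdk1 (0.30), a cell cycle kinase gene, Ephx2 (0.33), an epoxide hydrolase gene, and Fxyd6 (0.35), a regulator of the sodium pump, beside a median of 0.92. Of these only Fxyd6 rose. It read 5.78, 5.66 and 6.15 with vehicle and 7.63, 7.24 and 7.21 with CL, with CL replicate 1 highest as for Mmrn1, and the difference was 1.50 (standard error 0.18, adjusted p = 0.0249 in limma), which held without vehicle replicate 3 (0.0479) but without none of the other arrays (up to 0.111). For the other members above background the nearest genes were Cbfa2t3, Tmem44 and Upp1 (Flt4), Nrip2, Pex11a and Ttk (Nrp2), Slc29a2, Dnajb13 and Greb1l (Lyve1), Trpv4, Vit and Stmn4 (Pdpn), and Prr13, Mrps15 and Foxn2 (Reln), and none of them rose or fell.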

How the data were processed

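SVF RNA from gWAT was hybridised to 6 arrays (Affymetrix Mouse Gene 2.0 ST), 3 per treatment, grouped by their labels. The authors deposited RMA values on the log2 scale, made in Affymetrix Expression Console (versions and annotation build not given in the sources used here). RMA quantile-normalizes the arrays, so an equal shift of most genes would not be seen. Of 41345 probe sets, 23521 carried 1 gene symbol, 1820 several and 16004 none, and the highest-mean row with 1 symbol stood for each of 22180 genes. Ccl21a and Ccl19 lie only on rows with several symbols and are not reported, and some other listed genes were not analysed here. Symbols of 21994 genes were matched to RefSeq by gene number.

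Groups were compared with limma 3.58.1 (R 4.3.3, lmFit and eBayes), with two-sided p adjusted by Benjamini-Hochberg over the 22180 genes. On simulated data with this design and 22180 genes, 45.8% of 2-fold and 89.8% of 4-fold changes were recovered and 4.48% of calls were false. The simulated noise was normal and independent between genes, and the changed genes all lay above background. These rates therefore do not cover shifts shared by many genes, or genes below background such as Prox1. A single gene cannot reach a two-sided permutation p under 0.1. For arrays, their number limits the precision, and no batch or scan date was given. Members and lists were chosen with earlier results of these data known. Named genes were all members, all genes of the VEGF and maturation lists, in other lists those past the threshold and the 3 highest in mean level, and the 3 nearest profiles, and genes named outside this rule are said to be picked after their values were seen. Promoter sequences are from RefSeq. Alternatives covered the test, prior, filters, scaling, array weights, rows per gene, pairing and each array left out.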

Additional observations from a re-analysis of the deposited data

How the results depend on the processing

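With 3 arrays a group the counts of calls depended on the processing. Over all genes 44 rose and 28 fell, against 102 and 51 with the eBayes trend, 121 and 56 when also robust, 111 and 50 above the median level, 25 and 32 with quantile normalization and 23 and 30 with cyclic loess, so that under these scalings more genes fell than rose. Of the 9 genes 0 passed, against 1 (Vegfd) with either trend setting. The methods' t-test gave 1561 higher and 1047 lower, 4 of them members, unadjusted, and 0 and 0 after Benjamini-Hochberg adjustment. Testing every row by itself with limma gave 0 and 0 (unadjusted, 2598 rows were higher and 2617 lower). With 1 array left out 0 to 14 genes rose and 0 to 17 fell. The counts were 0 without CL replicate 1, 2 or 3, where limma's unadjusted p was under 0.05 for 1874, 1413 and 1745 higher genes and for 943, 894 and 992 lower ones, 4 members among the higher each time.

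The number of members whose groups did not overlap was 4 to 7 with 1 array left out, 7 without vehicle replicate 1, where 18.2% of all genes lay above and 14.4% below. Medians of small lists moved too, that of the mesothelial markers from −0.19 to 0.50, of the mature adipocyte markers from −0.02 to 0.45, of the platelet markers from −0.28 to 0.12 and of the 9 genes from 0.29 to 0.61. The difference of Flt4 turned to −0.02 under both quantile normalization and cyclic loess (−0.023 and −0.016) and ran from −0.23 (without CL replicate 1) to 0.29 with 1 array left out. The other 8 members kept their sign under every setting that tested them. With the replicate number as a block, 9 genes rose, 6 fell and 0 members passed. Deviations of same-numbered arrays correlated at −0.002, 0.11 and 0.05, and those of differently numbered arrays at −0.10 to 0.06. Whether the numbers pair the arrays is not settled by these values. Under a stricter background, the 99th percentile of the receptor genes, 4 of the 9 members lay below it instead of 1. Those 4, the lowest in mean level, were Prox1, Reln, Mmrn1 and Flt4, so the differences of Mmrn1 and Flt4 also rest on low levels.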
